A study of Mus musculus with 9 samples.

Results

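The 10 genes described here are markers and receptors of the liver's sinusoidal endothelium together with both neuropilins: Nrp1, Nrp2, Stab1, Stab2, Lyve1, Clec4g, Kdr, Pecam1, Fcgr2b and Wnt2. They were taken by gene symbol from tables of 23420 genes, as a set chosen with earlier results of these data known. All 10 had enough reads to be tested, as did 13020 genes in all. The endothelial ligand genes Bmp6 and Bmp2 were not among them. The study asked how the amount of iron in the diet alters the liver transcriptome. RNA was sequenced from the whole livers of 9 wild-type C57BL/6 male mice on the soy-free AIN-93G diet. From 5 weeks of age the food of 3 mice held 2.5 mg iron per kg (low iron), that of 3 held 37.5 mg per kg (sufficient iron) and that of 3 held 1000 mg per kg (high iron). The feeding lasted 50 days, and the livers were taken at 12 weeks. Each library is 1 mouse, and mice lacking hemojuvelin, which the protocol mentions, were not analysed here.

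Liver sinusoids are lined by a fenestrated endothelium without a complete basement membrane, which passes plasma solutes to the hepatocytes and clears waste macromolecules by scavenger receptors. These cells also take part in the liver's response to its iron load. They secrete the BMP ligands that make hepatocytes produce hepcidin, the hormone that lowers iron entry into plasma. Neuropilins are membrane co-receptors without a catalytic domain. NRP1 mainly assists VEGFA signalling through KDR and repulsion by SEMA3A, while NRP2 mainly assists VEGFC and VEGFD signalling through FLT4 and binds SEMA3F, and both form complexes with plexins.

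Nrp2 was the member whose RNA changed with the diet, so its promoter is shown beside that of Kdr, an endothelial receptor gene that did not pass any test. The sequences are the 200 bases ending 51 bases before the start annotated in RefSeq, on the strand of the gene, from the RefSeq promoters of build GRCm38.p6. The GENCODE annotation, used below for gene loci, places some starts elsewhere, that of Nrp2 included. The stretches of Nrp1 and Fcgr2b lie inside their GENCODE genes. Nrp2 lies at chr1:62703067-62703266 (plus strand) and Kdr at chr5:75978506-75978705 (minus strand). Capitals mark GGGCGG, the GC box bound by SP1-type factors, or its reverse complement.
Nrp2: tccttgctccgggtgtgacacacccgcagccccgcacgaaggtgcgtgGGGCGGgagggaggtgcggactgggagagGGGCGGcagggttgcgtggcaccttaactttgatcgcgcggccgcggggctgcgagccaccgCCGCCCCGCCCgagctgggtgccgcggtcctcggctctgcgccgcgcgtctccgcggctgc
Kdr: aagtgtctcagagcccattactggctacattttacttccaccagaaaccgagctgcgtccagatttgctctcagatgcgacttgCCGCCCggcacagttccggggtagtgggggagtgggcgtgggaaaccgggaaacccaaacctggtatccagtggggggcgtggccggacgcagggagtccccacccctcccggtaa
The Nrp2 stretch has 75.5% G and C and holds the GC box 4 times, counting both strands, with 2 of the matches overlapping by 1 base. The Kdr stretch has 61% G and C and holds it 1 time. Of the 8 members with a RefSeq promoter, 4 held a GC box (Nrp1, Nrp2, Kdr and Wnt2), against 24.6% of 32851 stretches of the same length. GGCGCC, the GC-rich letters read by BMP-activated SMAD proteins, occurred in Wnt2 alone of the 8 and in 7.15% of all stretches. TGACNNNGC, the core of the antioxidant response element, occurred in 0 of the 8 and in 7.66% of all. Both were searched on both strands. These are letters found in a window, not binding sites.

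The libraries held 22 M to 33.8 M gene reads (M, mega reads). The ribosomal RNA precursor Rn45s made up 43.7% of these reads in low-iron replicate 1 and 40.5% in high-iron replicate 12. Its share elsewhere was 12.5% to 23.8%. After scaling, this pair had the fewest effective reads, 12.8 M and 18.7 M against up to 43.5 M. Libraries also differed in how values moved with transcript length: the correlation across 12266 genes, which are not independent replicates, ran from -0.323 (low-iron replicate 1 and high-iron replicate 8) to 0.294 (sufficient-iron replicate 6). Hepatocyte markers showed the tissue to be liver, the 6 of them (with Alb and Apoa1) summing to between 43500 and 67100 CPM (edgeR's counts per mega-read after library scaling). The 19 genes shared by endothelium of all kinds, such as Cdh5 and Tie1, were all tested. They summed to 238 to 360 CPM in low-iron, 344 to 374 CPM in sufficient-iron and 266 to 405 CPM in high-iron livers. In whole-liver RNA, fewer endothelial cells and less RNA per cell cannot be told apart.

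Per kilobase of transcript, the most abundant member was Clec4g, a lectin of sinusoidal endothelium, at 17.7 ± 2.97 CPM per kb (mean ± SD over the 9 mice). Nrp1 was the next at 8.47 ± 1.36. Lyve1 (4.89 ± 2.52), Stab2 (4.72 ± 1.09), Kdr (4.63 ± 0.958) and Fcgr2b (4.34 ± 0.847) lay within 1 SD of each other. Then Stab1 (3.41 ± 0.745), Pecam1 (2.7 ± 0.51) and Nrp2 (2.01 ± 0.572) followed, and Wnt2 was lowest at 1.43 ± 0.466 CPM per kb. Apart from Clec4g and Nrp1, the mean ± SD ranges of neighbours in this order overlapped. By the raw counts, Nrp2 rested on 202 to 1026 reads per library and Wnt2 on 24 to 156.

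Nrp2 rose with dietary iron, and the rise passed the test between the extremes of the diet range. In low-iron livers it measured 15.8, 18.3 and 17.4 CPM in replicates 1, 5 and 9. In sufficient-iron livers it measured 21.0, 23.6 and 22.2 CPM in replicates 2, 6 and 10. In high-iron livers it measured 32.9, 29.3 and 34.1 CPM in replicates 4, 8 and 12. The 3 diets did not overlap: every high-iron mouse lay above every sufficient-iron mouse, and every sufficient-iron mouse above every low-iron mouse. The same held for 0.253% of the tested genes (33 of 13020). Group means were 17.1 ± 1.26, 22.3 ± 1.33 and 32.1 ± 2.5 CPM (SD, n = 3 each), so the high-iron livers held 1.87-fold the Nrp2 RNA of the low-iron livers.

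Between high and low iron the log2 fold change of Nrp2 was 0.90 ± 0.11 (SE; edgeR quasi-likelihood, Benjamini-Hochberg adjusted over all tested genes, adjusted p = 0.0125). It was the only one of the 10 members past the threshold of 0.05 in that comparison, in which 0.507% of all tested genes were called in either direction and 0.161% were called higher. Nrp2 was likewise the only member called in the test of any difference among the 3 diets (adjusted p = 0.0239), which called 0.215% of genes. In the trend with log10 of dietary iron, which called 0.307% of genes, its slope was 0.35 ± 0.04 log2 units per 10-fold more iron (SE; adjusted p = 0.0107). Because the members were chosen with earlier results of these data known, the shares of genes set beside Nrp2 are no independent support. Each step taken alone missed the threshold in edgeR. High against sufficient iron gave 0.53 ± 0.11 (SE; adjusted p = 0.0979) and low against sufficient iron gave -0.37 ± 0.11 (SE; adjusted p = 0.446). The step from sufficient to high iron passed under DESeq2 (adjusted p = 0.00286), limma-voom with quality weights (0.0214) and removal of the length trend (0.0232). The call between high and low iron depended on single mice: the log2 fold change stayed between 0.86 and 0.97 as each library was left out in turn, but the adjusted p was 0.0596 without high-iron replicate 4, 0.0513 without high-iron replicate 8 and 0.0699 without low-iron replicate 9. Without both libraries rich in Rn45s, the value was 0.80 (adjusted p = 0.0479), and with the length trend removed it was 0.86 (0.0116).

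**Figure D1:**
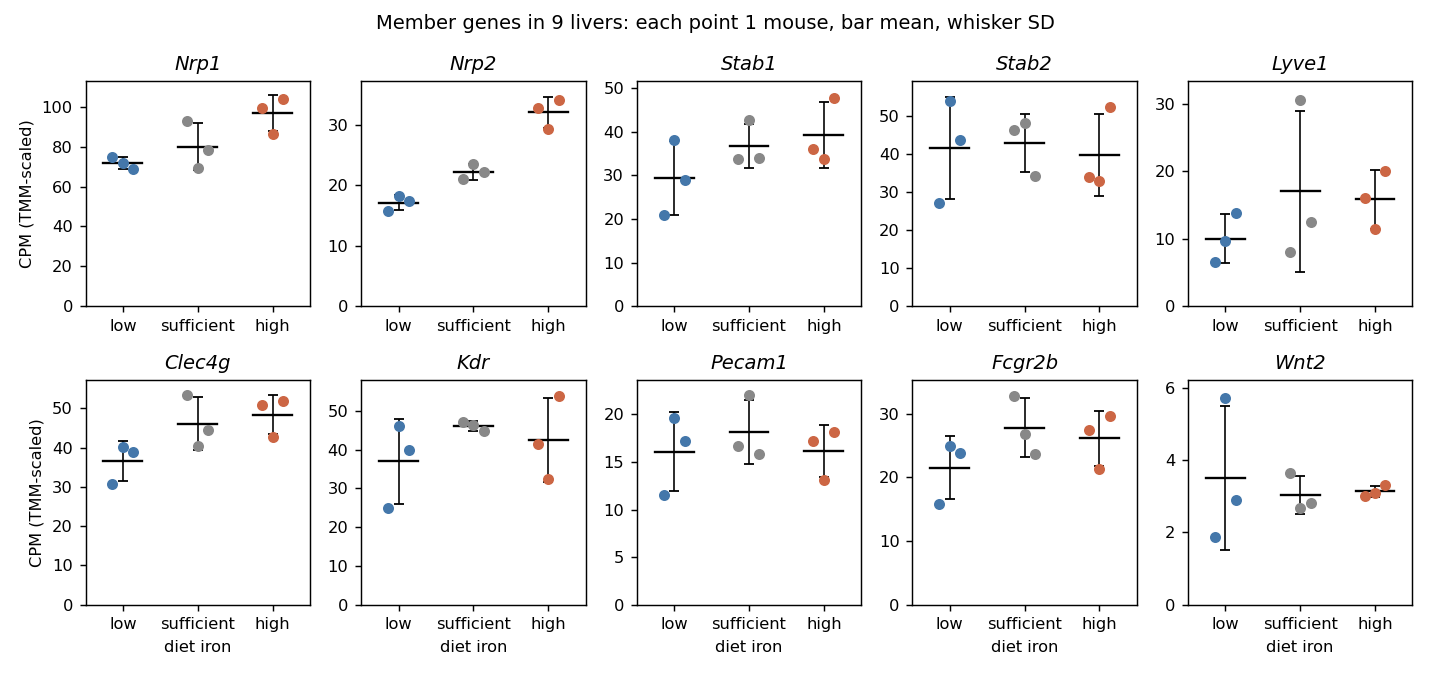
Scaled CPM (vertical axes, each from 0) of the 10 genes in each of the 9 mice, by diet iron (horizontal axes), where a point is 1 mouse, the bar the mean and the whisker the SD. Nrp2 forms 3 steps without overlap from 15.8 to 34.1 CPM, whereas every pair of diets overlaps in the 7 panels other than Nrp1, Nrp2 and Clec4g.

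Nrp1, the co-receptor of VEGFA and SEMA3A, was the most strongly read of the 10 genes. It measured 74.7, 72.0 and 69.0 CPM in low-iron, 92.7, 69.2 and 78.2 CPM in sufficient-iron and 99.4, 86.6 and 104 CPM in high-iron livers (replicates in the order above). Every high-iron mouse lay above every low-iron mouse, while the sufficient-iron mice spanned the gap and overlapped both diets. The difference between high and low iron was 0.43 ± 0.13 on the log2 scale (SE; adjusted p = 0.218) and did not pass. Its 95% interval ran from 0.14 to 0.71, and that of Nrp2 from 0.66 to 1.14. Over the trend Nrp1 had a slope of 0.17 ± 0.05 (SE; adjusted p = 0.218).

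Nrp2 was also set against endothelial reads of the same library. This leaves out differences in how much endothelial RNA a library held only if the Nrp2 reads were endothelial, which was not measured. Per 100 reads of the 19 pan-endothelial genes there were 6.62, 5.07 and 5.83 Nrp2 reads in low-iron livers and 5.68, 6.32 and 6.45 in sufficient-iron livers. The high-iron livers had 9.33, 11 and 8.44. The high-iron mice lay above the other 6, and the low-iron and sufficient-iron mice overlapped. These ratios were formed after Nrp2 was seen to differ by diet, so they describe it and are no independent support. The means were 5.84 ± 0.775, 6.15 ± 0.412 and 9.59 ± 1.3 (SD, n = 3 each), and an exact permutation test over the 1680 arrangements of the 9 mice gave p = 0.025 for a difference among the diets (adjusted p = 0.05 over 2 ratios, which is not under the threshold; smallest possible p 0.00357). Per 100 reads of Nrp1, Nrp2 had 21.1, 25.4 and 25.2 reads in low-iron, 22.6, 34.1 and 28.4 in sufficient-iron and 33.1, 33.9 and 32.8 in high-iron livers. The low-iron mice lay below the high-iron mice, and sufficient-iron replicate 6 above all of them. This ratio did not pass either (exact permutation p = 0.0964). Further ratios of Nrp2, such as that to Kdr, were formed but not tested, and the adjustment does not count them. With the pan-endothelial level of each library as a covariate in the model, an alternative chosen after the data were seen, the log2 fold change of Nrp2 between high and sufficient iron was 0.56 (adjusted p = 0.0439). This fit rests on the same condition as the ratios.

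**Figure D2:**
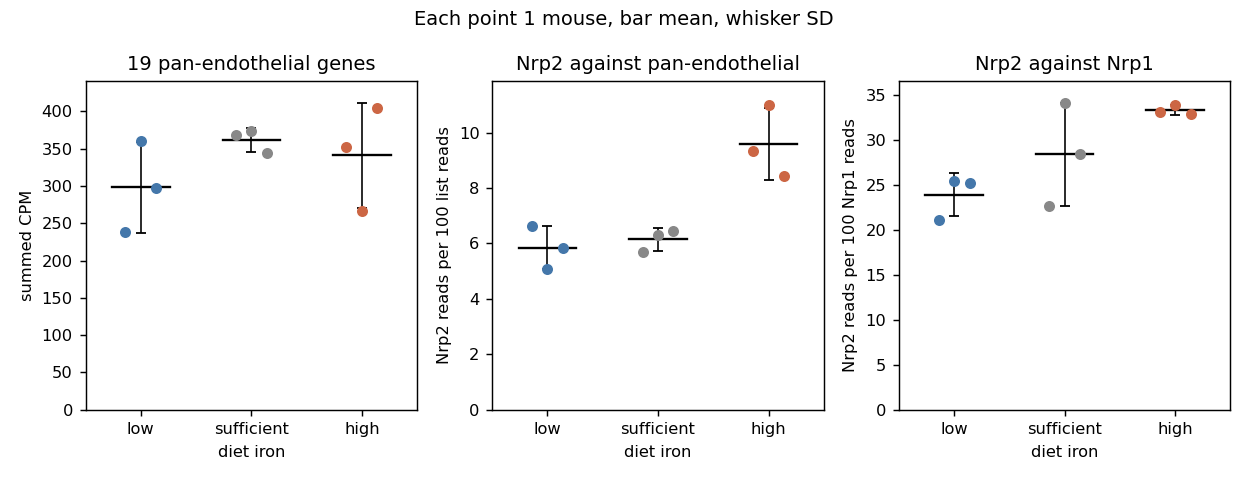
Summed CPM of the 19 pan-endothelial genes, Nrp2 reads per 100 of their reads, and Nrp2 reads per 100 Nrp1 reads, by diet iron, where a point is 1 mouse, the bar the mean and the whisker the SD. The diets overlap in the summed level, and in the middle panel the high-iron mice lie at 8.44 to 11 above the other 6 at 5.07 to 6.62.

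Which cells of the liver carried the Nrp2 reads was not measured. NRP2 is made by lymphatic as well as sinusoidal endothelium, and by some macrophages. Of 3 lymphatic markers, Ccl21a had no read in any library, and the 3 together summed to between 0.234 and 1.15 CPM over the 9 livers. The ranges of this sum overlapped between diets. Its medians were 0.388, 0.656 and 0.836 CPM in low-iron, sufficient-iron and high-iron livers, which is the order of Nrp2, at a level near the floor. Reads without a unique alignment were not assigned to genes, so the lack of Ccl21a reads does not show that its RNA was absent. The 13 Kupffer cell markers summed to 137 to 327 CPM in low-iron, 317 to 504 CPM in sufficient-iron and 271 to 342 CPM in high-iron livers. Between high and sufficient iron 12 of the 13 were negative and 0 passed the test. The 14 markers of stellate cells, the pericytes of the sinusoid, summed to 242 to 330, 262 to 551 and 267 to 391 CPM. Neither the Kupffer nor the stellate sum followed the order of Nrp2 over the 3 diets. The sum of the pan-endothelial genes did not follow it either (medians 298, 369 and 352 CPM in low-iron, sufficient-iron and high-iron livers). The sums therefore do not tell these cell types apart, and the source of the Nrp2 reads was not tested. Nrp2 shares no exon bases with another annotated gene at its locus (chr1:62703285-62818695, plus strand, GRCm38).

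The ligands and signalling partners of the neuropilins were taken as a list of 20 genes, of which 16 were tested and 0 passed in any comparison. Between high and low iron 13 were positive and 3 negative, with a median log2 fold change of 0.23 against -0.006 over all tested genes. Their summed level was 192 to 215 CPM in low-iron, 209 to 226 in sufficient-iron and 238 to 252 CPM in high-iron livers. The high-iron livers thus lay above all others in this sum, of which Vegfa made up the largest share. With Vegfa taken out of the sum, the diets overlapped, so the separation does not describe the partners as a set. Low-iron replicate 1 was the lowest library for some partners, such as Flt4 (13.7 CPM) and Plxnd1 (17.8 CPM). It was the highest for Vegfb (24 CPM) and Figf (1.87 CPM). What part this library had in the shared direction was not tested.

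Among the ligands, Vegfa, the main angiogenic growth factor, measured 97.4, 63.4 and 62.5 CPM in low-iron, 76.3, 46.5 and 91.0 CPM in sufficient-iron and 85.2, 119 and 95.9 CPM in high-iron livers. Low-iron replicate 1 reached the high-iron range, and the diets overlapped (0.43 ± 0.25, SE, high against low iron; adjusted p = 0.641). Sema3b, a secreted semaphorin that can bind both neuropilins, had the lowest p of the list. It measured 1.01, 0.622 and 1.06 CPM in low-iron, 0.911, 1.91 and 1.90 CPM in sufficient-iron and 2.37, 2.01 and 2.56 CPM in high-iron livers, on 13 to 83 reads per library. Its high-iron values lay above all others, and the low-iron and sufficient-iron values overlapped (1.38 ± 0.34, SE, high against low iron; adjusted p = 0.118). Sema3f, the high-affinity NRP2 ligand, stood at 4.66 ± 0.786, 5.14 ± 0.322 and 4.75 ± 0.567 CPM (SD, low, sufficient and high iron), with 0.02 ± 0.17 between high and low iron. Sema3c and Sema3d also did not pass. Vegfc and Figf (VEGFD), the growth factors that signal through FLT4, were singled out after their values were seen. Vegfc stood at 3.52 ± 0.235, 3.49 ± 0.507 and 3.18 ± 0.348 CPM in the same order (-0.15 ± 0.18, SE, high against low iron; adjusted p = 0.849). Figf stood at 1.03 ± 0.729, 0.758 ± 0.234 and 1.07 ± 0.162 CPM (0.18 ± 0.45, SE; adjusted p = 0.936). Sema3a, Sema3e and Sema3g (0 to 17 reads per library) and the VEGF family ligand gene Pgf (0 or 1 read) were too low to test.

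Among the receptors, Flt4, the VEGFC receptor that works with NRP2, measured 13.7, 28.0 and 23.3 CPM in low-iron, 23.4, 31.2 and 25.6 CPM in sufficient-iron and 30.9, 24.6 and 36.0 CPM in high-iron livers. The diets overlapped, with low-iron replicate 1 the lowest of the 9 (0.48 ± 0.23, SE, high against low iron; adjusted p = 0.559). Flt1, the decoy-type VEGFA receptor, had -0.24 ± 0.29 and Plxnd1, an endothelial plexin that transmits semaphorin signals, 0.23 ± 0.18 in the same comparison. Plxna2, another plexin, was at -0.39 ± 0.25 (SE). Gipc1, the adaptor that binds the cytoplasmic tail of neuropilins, measured 7.80, 5.67 and 6.94 CPM in low-iron, 8.6, 7.11 and 7.26 CPM in sufficient-iron and 9.30, 10.3 and 9.72 CPM in high-iron livers. Every high-iron mouse lay above the other 6 (0.53 ± 0.15, SE, high against low iron; adjusted p = 0.188).

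**Figure D3:**
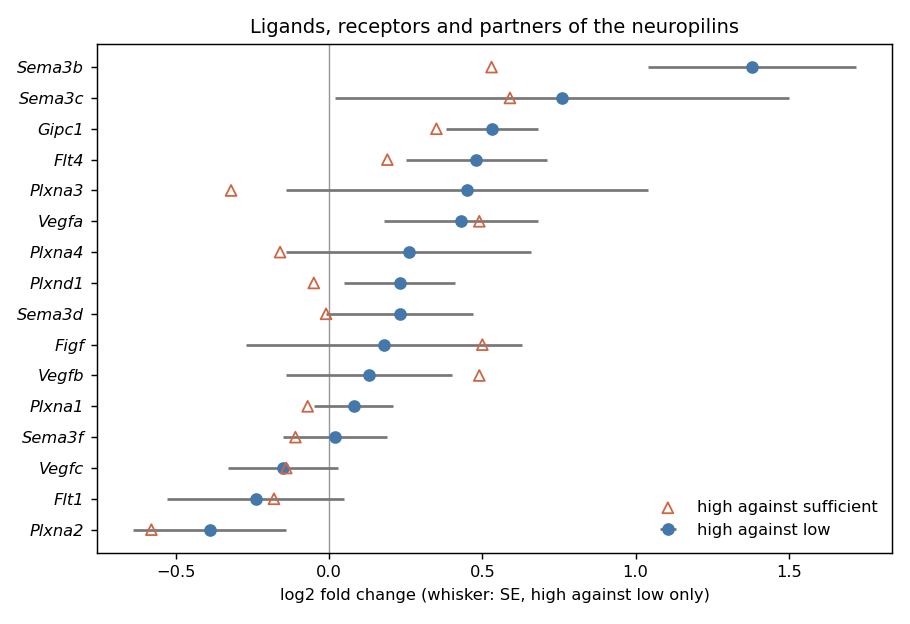
Log2 fold changes (horizontal axis) of the 16 tested ligands, receptors and adaptors of the neuropilins, with filled circles and SE whiskers for high against low iron and open triangles for high against sufficient iron. Of the circles 13 lie above 0 and 3 below, led by Sema3b at 1.38, and 0 of the genes passed the test.

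The scavenger and clearance receptors of the sinusoid did not pass in any comparison. Stab1 and Stab2 encode the stabilins, large endocytic receptors that take up modified proteins and, for stabilin-2, hyaluronan. Stab1 measured 21.0, 38.0 and 28.9 CPM in low-iron, 33.8, 42.6 and 34.0 CPM in sufficient-iron and 36.0, 33.8 and 47.8 CPM in high-iron livers. The diets overlapped, with low-iron replicate 1 the lowest (0.41 ± 0.21, SE, high against low iron; adjusted p = 0.584). Stab2 measured 27.2, 53.8 and 43.5 CPM in low-iron, 46.2, 48.2 and 34.1 CPM in sufficient-iron and 34.0, 32.8 and 52.2 CPM in high-iron livers. Its highest and lowest value were both in low-iron mice. The log2 fold change between high and low iron was -0.08 with a 95% interval of -0.64 to 0.49, and between low and sufficient iron it was -0.04 (-0.60 to 0.52), both of which hold differences of either sign.

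Lyve1, a hyaluronan receptor of sinusoidal and lymphatic endothelium, varied most of the 10, with a coefficient of variation of 51.4% over the 9 mice. It measured 6.55, 9.69 and 13.8 CPM in low-iron, 8.09, 30.5 and 12.4 CPM in sufficient-iron and 16.0, 11.4 and 20.1 CPM in high-iron livers. Sufficient-iron replicate 6 stood above the other 8 mice. The difference between high and sufficient iron was -0.12 ± 0.44 on the log2 scale with it and 0.62 without it, and neither passed. Fcgr2b, the inhibitory Fc receptor by which sinusoidal endothelium clears small immune complexes, measured 15.8, 24.9 and 23.8 CPM in low-iron, 32.8, 26.8 and 23.7 CPM in sufficient-iron and 27.4, 21.3 and 29.6 CPM in high-iron livers. The diets overlapped, and low iron stood at -0.36 ± 0.19 against sufficient iron (SE; adjusted p = 0.474).

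Clec4g measured 30.7, 40.1 and 38.8 CPM in low-iron, 53.4, 40.3 and 44.4 CPM in sufficient-iron and 50.7, 42.6 and 51.8 CPM in high-iron livers. The low-iron mice lay below the mice of both other diets, and the sufficient-iron and high-iron mice overlapped. The differences did not pass (0.40 ± 0.14 for high against low iron, adjusted p = 0.354, and -0.33 ± 0.14 for low against sufficient iron, adjusted p = 0.446, SE). Stab1, Stab2, Clec4g and Fcgr2b each share 112 to 155 exon bases with a gene on the opposite strand, and the strand setting of the counting is not given in the sources used here. Of 8 further scavenger receptor genes 7 were tested and 0 passed. Msr1, the class A macrophage scavenger receptor, stood at -0.79 ± 0.24 between low and sufficient iron (SE; adjusted p = 0.446).

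Kdr, the main VEGFA receptor of endothelium, measured 24.9, 46.0 and 39.9 CPM in low-iron, 47.1, 46.3 and 44.8 CPM in sufficient-iron and 41.5, 32.3 and 53.8 CPM in high-iron livers. The sufficient-iron mice lay close together inside the range of the high-iron mice, and low-iron replicate 1 lay below all others. Between high and low iron the difference was 0.19 ± 0.22 on the log2 scale (SE; adjusted p = 0.84). Without low-iron replicate 1 it was -0.01. Pecam1, the junctional adhesion molecule CD31, measured 11.5, 19.6 and 17.2 CPM in low-iron, 16.7, 22.0 and 15.8 CPM in sufficient-iron and 17.2, 13.1 and 18.2 CPM in high-iron livers. The diets overlapped, and its differences ran from -0.17 to -0.01 over the 3 pairwise comparisons.

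**Figure D4:**
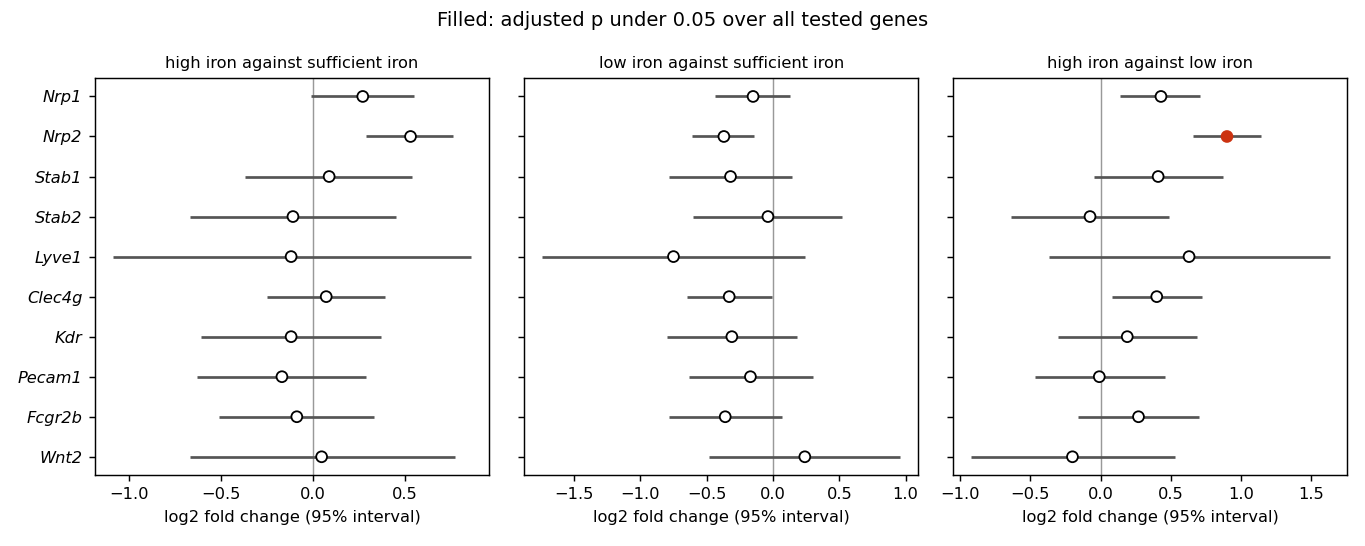
Log2 fold changes (points) with 95% intervals (lines) of the 10 genes in the 3 pairwise comparisons, with filled points where the adjusted p was under 0.05. Nrp2 between high and low iron, at 0.90, is the only filled point, and Lyve1 has the widest interval in each panel.

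Wnt2 encodes a ligand by which the endothelium near the central vein keeps neighbouring hepatocytes in a pericentral state. It measured 1.87, 5.71 and 2.89 CPM in low-iron, 3.64, 2.67 and 2.81 CPM in sufficient-iron and 3.01, 3.08 and 3.31 CPM in high-iron livers. Low-iron replicate 5 was the highest and replicate 1 of the same diet the lowest of the 9 mice. High against low iron gave -0.20 ± 0.33 (SE; adjusted p = 0.893), which became 0.36 without low-iron replicate 5. Of 10 other genes of this axis, ligands and their pericentral targets, 0 passed in any comparison. Rspo3 (a Wnt-enhancing ligand of central vein endothelium) and Wnt9b are both in it. Wnt9b, the partner ligand, stood at 0.50 ± 0.36 (SE) between high and low iron. The targets with the lowest p were Lect2, a secreted hepatocyte protein, and Lgr5, the R-spondin receptor. Lect2 measured 66.4, 68.6 and 84.0 CPM in low-iron, 65.1, 59.9 and 72.1 CPM in sufficient-iron and 46.8, 50.2 and 44.5 CPM in high-iron livers. Its high-iron values lay below all others (-0.63 ± 0.12, SE, high against low iron; adjusted p = 0.0544). Lgr5 had -0.76 ± 0.20 (adjusted p = 0.146) and Glul, the pericentral glutamine synthetase gene, -0.30 ± 0.15 (adjusted p = 0.564) in the same comparison.

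Read as a group, the 10 members held 0 calls by edgeR between high and sufficient iron, where 0.215% of genes were called. DESeq2 (211 genes) and limma-voom with quality weights (92 genes) each called 1 member there, Nrp2. At an unadjusted p under 0.05 stood 1 member (Nrp2) and 9.28% of all tested genes. The groups did not overlap, with high iron higher, for the same member and for 8.99% of genes. Their median log2 fold change was -0.02, 5 positive and 5 negative, against -0.011 over all tested genes. Between low and sufficient iron 0 members and 0% of genes were called by edgeR (1458 genes, 11.2%, and 2 members, Nrp2 and Clec4g, at an unadjusted p under 0.05). DESeq2 called 103 genes there but gave no member an adjusted p, so it could not call any. With limma-voom 0 genes were called. In that comparison 9 members were negative, all but Wnt2, with a median of -0.32 against -0.004. The groups did not overlap, with low iron lower, for 2 members (Nrp2 and Clec4g), against 7.83% of all tested genes. Between high and low iron 7 members were positive with a median of 0.34 against -0.006, and 3 members stood at an unadjusted p under 0.05, against 9.65% of genes. The groups did not overlap, with high iron higher, for 3 members (Nrp1, Nrp2 and Clec4g), against 7.59% of genes.

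These shared directions moved with 1 library. Low-iron replicate 1 was the lowest of the 9 libraries for 9 of the 10 members, the exception being Nrp1, which was lowest in low-iron replicate 9. Its median deviation from the mean over libraries was -0.604 log2 units for the members and -0.461 for the 19 pan-endothelial genes. High-iron replicate 12 was the highest for 4 members, with a median deviation of 0.359, and 0.246 for the pan-endothelial genes. Without low-iron replicate 1 the members' median was -0.17 between low and sufficient iron, with 7 negative, and 0.18 between high and low iron, with 6 positive. Without both of these libraries the median between high and low iron was 0.03, with 5 positive and 5 negative, while Nrp2 stood at 0.80. These are the 2 libraries with the most Rn45s reads, and they deviate in opposite directions. With Rn45s and the gene Lars2 taken out before scaling, the members' median was -0.32 between low and sufficient iron and 0.34 between high and low iron. With the length trend removed these medians were -0.2 and 0.3. What part Rn45s or depth had in the deviations of the 2 libraries was not tested.

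**Figure D5:**
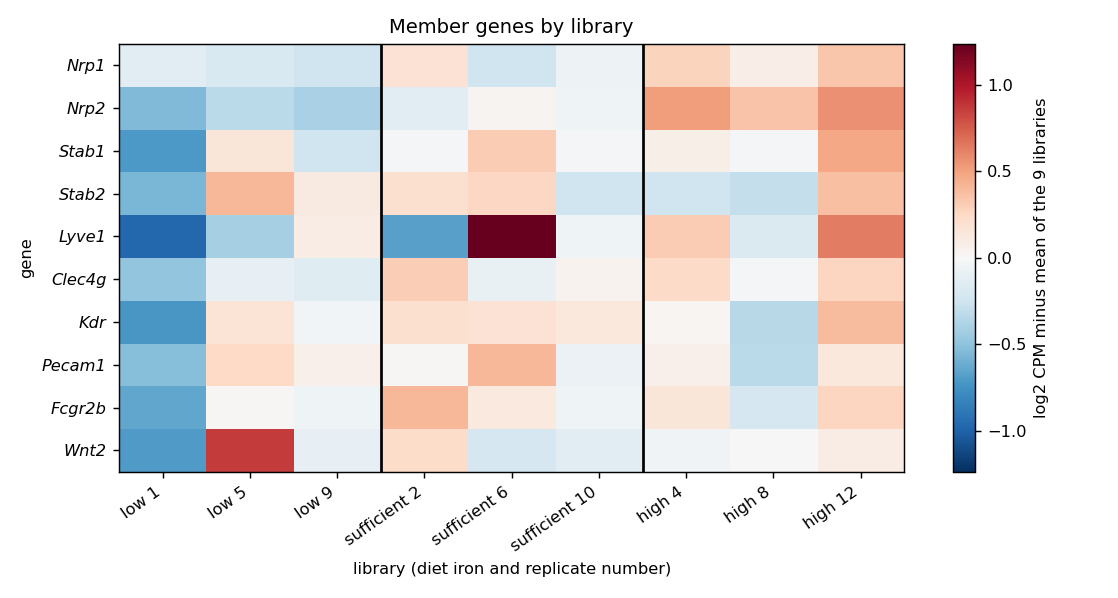
Log2 CPM of each gene (rows) minus its mean over the 9 libraries, by library (columns, divided by diet), where red is above and blue below the mean. The column of low-iron replicate 1 is blue for all 10 genes with a median of -0.604, and Nrp2 is the row in which the 3 diets form blue, pale and red blocks.

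Within diets, that is after subtracting each diet's mean, most members varied together over the 9 libraries. Kdr had the highest median correlation with the other 9 (Pearson r = 0.84), and the medians of Nrp2, Stab1, Stab2, Clec4g, Pecam1, Fcgr2b and Wnt2 ran from 0.64 to 0.77. Lyve1 had a median r of 0.47 and Nrp1 one of 0.10. Nrp2 had r = 0.92 with Pecam1 and 0.88 with Stab1, but -0.13 with Nrp1. These are descriptions over 9 libraries that share depth and composition. Of 10998 genes searched in the same way, those most like Nrp2 were Lrba (0.988), Csgalnact1 (0.986), Utrn (0.98), Atf7ip (0.98) and Itga1 (0.979). Those most like Nrp1 were Tnks2 (0.967), Acacb (0.963), Zfyve26 (0.953), Zfp668 (0.946) and Esrrg (0.946). Those most like Stab2 were Suv39h2 (0.986), Plekhb2 (0.981), Zfyve9 (0.978), Mbd1 (0.975) and Cmklr1 (0.967). None of the other 9 members was among these.

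Other genes of the sinusoidal endothelium did not pass either. Of 10 further sinusoidal markers, all tested, 0 were called in any comparison. Flt4, Gata4, Tfec and Mrc1 among them also stand in the lists of partners, transcription factors or scavenger receptors. All 10 were negative between low and sufficient iron (median -0.28) and 8 were positive between high and low iron (median 0.32), with 5 positive and 5 negative between high and sufficient iron (median -0.03). The lowest p among them belonged to Ehd3, a membrane trafficking gene (0.43 ± 0.16, SE, high against low iron; adjusted p = 0.379). Clec1b (0.35 ± 0.22) and Gpr182 (0.39 ± 0.19) had like values. Of the 19 pan-endothelial genes, 14 were positive between high and low iron (median 0.12) and 15 negative between low and sufficient iron (median -0.24), with Eng, a co-receptor for BMP9, at 0.39 ± 0.14 (SE; adjusted p = 0.366) and Robo4 at 0.40 ± 0.18 (adjusted p = 0.508) between high and low iron. Set beside these medians, Nrp2 had 0.90. Of 10 transcription factors of sinusoidal identity, 3 were positive and 7 negative between high and low iron (median -0.06), with Nr2f2 at 0.05 ± 0.13 and Erg at -0.30 ± 0.18 (SE).

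The zones of the sinusoid were read from short marker lists. The 4 periportal genes were Efnb2, Dll4, Ltbp4 and Msr1, the macrophage scavenger receptor gene named above. All 4 were negative between low and sufficient iron (median -0.41) and between high and sufficient iron (median -0.33), with 0 called. Msr1 was the most negative in both (-0.79 and -0.53). The sum of the 4 was lowest in low-iron replicate 1 (39.7 CPM). Of 7 pericentral or central vein genes 0 were called. Lhx6 among them stood at 7.44 ± 1.14, 7.10 ± 1.59 and 3.93 ± 0.143 CPM in low-iron, sufficient-iron and high-iron livers (-0.91 ± 0.19, SE, high against low iron; adjusted p = 0.072). Of 8 markers of large-vessel or capillarised endothelium, 7 were tested and 0 called, and between high and low iron 3 were positive and 4 negative (median -0.03). Cd34, which is low in sinusoidal and high in capillarised endothelium, stood at 0.997 ± 0.258, 1.90 ± 0.582 and 1.40 ± 0.481 CPM (SD, n = 3 each) in that order of diets.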

How the data were processed

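Liver RNA of 9 mice (3 per diet) was measured by RNA sequencing; per the labels' protocols, RNA was purified on RNeasy columns, libraries were made with a TruSeq RNA kit and sequenced on an Illumina HiSeq instrument. The authors deposited raw counts of reads per gene symbol, with 5 category lines per table that were left out here. FastQC, mm10 and mm9 stand in the submitters' processing notes with no role. Aligner, counter and strandedness of counting: not given in the sources used here.

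These counts went into edgeR 4.0.16 (R 4.3.3). After filterByExpr, 13020 genes remained, and TMM set the library scaling. A robust quasi-likelihood fit of the 9 libraries had diet alone as its term (common biological coefficient of variation 0.177), and another had log10 dietary iron. Benjamini-Hochberg adjustment ran over the tested genes of each comparison (threshold 0.05). P-values measure the spread between these mice. SE was the log2 fold change divided by the square root of F. CPM used scaled library sizes and log2 CPM a prior count of 2. No 2 libraries held identical counts. Gene coordinates and exon lengths came from GENCODE M21, and promoters from RefSeq, in which 8 of the 10 members matched. The fit was checked on simulated counts drawn with a common dispersion for all genes. These held no Rn45s excess in single libraries and no length trend, so the check does not cover those features. Besides the members, 17 lists were used, of neuropilin partners, Wnt and pericentral genes, scavenger receptors, sinusoidal transcription factors and markers of liver cell types. Named were all members, up to 4 genes per list by the 3-diet p, any list gene past the threshold, the neuropilin ligand and co-receptor genes Vegfa, Pgf, Sema3 genes, Plxnd1, Flt1 and Flt4, and the 5 genes (of at least 1 CPM) most like Nrp1, Nrp2 and Stab2. The members and lists were chosen with earlier results of these data known. Alternatives were other scalings and filters, DESeq2 1.42.0, limma-voom (limma 3.58.1), fits of 6 libraries, and libraries left out. No values from mice lacking hemojuvelin were analysed.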

Additional observations from a re-analysis of the deposited data

How the results depend on the processing

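The count of members called between high and sufficient iron went from 0 to 1 (Nrp2) under DESeq2, limma-voom with quality weights, removal of the length trend and the endothelial covariate, and was 0 to 0 as each library was left out. Between low and sufficient iron it was 0 under all 22 alternatives, of which DESeq2 could call none because it gave no member an adjusted p. Between high and low iron it went from 1 to 2 (with Nrp1) under limma-voom with quality weights, and was 0 to 1 with a library left out. In the 3-diet test it was 0 without low-iron replicate 1 and high-iron replicate 12, and 0 to 1 with 1 library left out (0 without high-iron replicate 4, 8 or 12 or low-iron replicate 5 or 9). For the trend it was 2 under DESeq2 and quality weights, 0 without that pair of libraries, and 0 to 1 with 1 library left out (0 without high-iron replicate 4 or 12 or low-iron replicate 9). Nrp2 kept its direction in every alternative that gave it an adjusted p. In log2 fold change between high and low iron it ran from 0.80 to 0.97 and was past the threshold in 19 of 22, in 1 of them only just (adjusted p = 0.05 when rounded, without high-iron replicate 12). Over all genes, calls ran from 0 to 211 against 28 for high against sufficient iron, 0 to 103 against 0 for low against sufficient, 0 to 378 against 66 for high against low, 0 to 402 against 28 in the 3-diet test and 0 to 304 against 40 for the trend.

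No paired analysis was made, because the diets share no replicate numbers and the labels state no pairing of the mice. Nrp1 and Nrp2 did not turn in direction in any alternative that gave them an adjusted p. The 8 members other than the neuropilins passed in 0 alternatives, and each of them turned in direction in at least 1, for which the cause was not tested. With limma-voom, Lyve1 between high and sufficient iron was 0.012, and with quality weights 0.38, while quality weights turned low against sufficient iron for Stab2 (0.12) and Pecam1 (0.035). Upper-quartile scaling gave 0.014 and a filter of 1 CPM in 3 libraries 0.005 for Pecam1 between high and low iron. The length trend, the pairs of libraries left out and the endothelial covariate were chosen after seeing the data. Removal of the length trend gave -0.001 for Wnt2 (high against sufficient) and 0.079 for Stab2 (low against sufficient). Without low-iron replicate 1 and sufficient-iron replicate 6, Lyve1 (0.61), Clec4g (-0.016) and Wnt2 (-0.041) turned between high and sufficient iron, Stab2 (0.28), Lyve1 (0.19) and Pecam1 (0.18) between low and sufficient iron, and Kdr (-0.019) between high and low iron. Without low-iron replicate 1 and high-iron replicate 12, Stab1 (-0.082) turned between high and sufficient iron, Stab2 (0.19) and Pecam1 (0.017) between low and sufficient iron, and Kdr (-0.22) and Fcgr2b (-0.003) between high and low iron. The endothelial covariate gave 0.023 for Stab2, 0.008 for Lyve1 and 0.009 for Fcgr2b between high and sufficient iron, 0.31 for Stab2, 0.026 for Kdr and 0.12 for Pecam1 between low and sufficient iron, and -0.032 for Kdr between high and low iron. With 1 library left out, log2 fold changes between high and sufficient iron ran from -0.081 to 0.21 (Stab1), -0.36 to 0.003 (Stab2), -0.44 to 0.62 (Lyve1), -0.016 to 0.19 (Clec4g), -0.32 to 0.043 (Kdr), -0.20 to 0.046 (Fcgr2b) and -0.042 to 0.19 (Wnt2). Between low and sufficient iron they ran from -0.27 to 0.17 (Stab2), -0.33 to 0.003 (Pecam1) and -0.31 to 0.49 (Wnt2), and between high and low iron from -0.31 to 0.15 (Stab2), -0.009 to 0.38 (Kdr), -0.18 to 0.15 (Pecam1) and -0.45 to 0.36 (Wnt2). At this depth Wnt2 and Sema3b are limited by counts below 200 reads.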

Other observations

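Markers of the other liver cells were read beside the endothelial genes. The keratin and duct genes of cholangiocytes, the bile duct epithelium, had a median log2 fold change of 0.85 between high and low iron with 6 of 6 positive and 0 called. Sox9, their transcription factor, stood at 4.26 ± 0.645, 6.14 ± 0.738 and 6.80 ± 2.34 CPM in low-iron, sufficient-iron and high-iron livers (0.69 ± 0.24, SE; adjusted p = 0.314). All 14 stellate cell genes were negative between low and sufficient iron (median -0.37), and so were all 13 Kupffer cell genes (median -0.64), with 0 called in both lists. The summed Kupffer level was 137 CPM in low-iron replicate 1 against 297 and 327 CPM in the other low-iron mice, and the stellate genes of sufficient-iron replicate 6 summed to 551 CPM, where replicates 2 and 10 of that diet had 262 and 338 CPM. What part these libraries had in the shared direction was not tested. Marco, a macrophage scavenger receptor found on Kupffer cells, stood at 1.66 ± 1.06, 10.6 ± 4.55 and 5.02 ± 3.24 CPM in the same order of diets (-2.55 ± 0.55, SE, low against sufficient iron; adjusted p = 0.446). Of 6 hepatocyte genes, 6 were negative between high and low iron (median -0.36) and 0 called. Of 4 B cell genes 0 were called (median 0.25, high against low iron), as were 0 of 2 tested platelet genes (0.28) and 0 of 2 tested lymphatic genes (0.19).

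In the erythroid list 1 gene could be tested, and it fell. Alas2, the erythroid enzyme that starts haem synthesis, stood at 102 ± 20.9, 71.0 ± 9.75 and 34.1 ± 5.33 CPM in low-iron, sufficient-iron and high-iron livers (SD, n = 3 each), with a log2 fold change of -1.58 ± 0.18 between high and low iron (SE; edgeR adjusted p = 0.0113). Its diet means thus had the reverse order of those of Nrp2. The adult haemoglobin genes Hba-a1, Hba-a2, Hbb-b1 and Hbb-b2 were listed with 0 reads in every library. Hbb-bs and Hbb-bt had no entry among the counted genes, and reads without a unique alignment were not assigned to genes. Whether haemoglobin RNA was absent was therefore not measured.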
